A study of Mus musculus with 11 samples.

Results

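The genes encoding the receptors and ligands of platelet-derived growth factor (PDGF) were followed in cultured bone-derived mesenchymal stem cells (MSCs) of mice. The 7 members were chosen by name and not by their values, although earlier results of these data were known. They were the receptors Pdgfra and Pdgfrb, the receptor-like gene Pdgfrl, and the ligands Pdgfa, Pdgfb, Pdgfc and Pdgfd. All 7 were found among the 28222 genes of the count table, and all 7 had enough counts to be tested in each comparison. The study sequenced polyadenylated RNA of 11 libraries to describe how MSCs change between young and old mice. Young mice were 3 to 5 months old and old mice 18 to 22 months old, and cells of both ages were kept at 2% oxygen in αMEM medium with 10% FBS, without any further agent. By the labels, 4 young libraries formed batch A, 2 of each age formed batch B, and 3 old ones formed batch C, so that only batch B separates age from batch. In the study's methods, which describe an oxygen comparison in C57BL/6N mice, MSCs grew out together with bone chips and were sorted as cells positive for Sca-1 and CD140a and negative for the blood cell markers CD45 and TER-119. CD140a is the protein encoded by Pdgfra, so that this member was also a criterion of the sort. Nothing in the labels says whether replicates came from separate animals, and p-values measure only the spread between these libraries, which may be technical.

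PDGF ligands are secreted as dimers and bring together receptor chains of the tyrosine kinase class, PDGFRα and PDGFRβ, which then signal through the Ras-MAP kinase, PI3 kinase and PLCγ routes. PDGF-A and PDGF-C act mainly through PDGFRα, PDGF-B can bind both receptors, and PDGF-D acts mainly through PDGFRβ. PDGF-C and PDGF-D are released in a latent form and have to be cut by proteases before they can bind. In bone and marrow both receptors are used to recognise mesenchymal stromal and perivascular cells, and PDGF-B is known as a product of platelets, endothelial cells and cells of the osteoclast lineage.

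Library totals ranged from 11969336 to 20315934 counts, and 3 counts, taken as the smallest detectable level, corresponded to 0.156 to 0.253 CPM (counts scaled to the TMM-corrected size of the library). All 10 listed mesenchymal markers, Ly6a (Sca-1) and Pdgfra included, reached at least 1 CPM in every library. The 12 listed haematopoietic markers did so too, although CD45-positive cells are described as sorted out: Ptprc, which encodes CD45, lay between 3.47 and 22.2 CPM. The summed level of the 12 markers was 649 to 1420 CPM in batch A young, 368 to 745 in batch B young, 745 to 1080 in batch B old and only 130 to 153 in batch C old MSCs. Pericyte and smooth muscle markers summed to 3319 to 4508, 2290 to 2460, 2884 to 3420 and 3177 to 3482 CPM in the same order of groups, and osteoblast markers to 52640 to 61980, 24140 to 42860, 22610 to 23820 and 18900 to 20110 CPM. Nearly all of the osteoblast sum was Col1a1 (52350 to 61710 CPM in batch A young and 18420 to 19440 CPM in batch C old MSCs). The other listed osteoblast genes, Runx2, Sp7, Alpl, Bglap and Ibsp, were instead highest in batch C old MSCs. Nearly all of the pericyte and smooth muscle sum was Acta2 (3112 to 4242 CPM in batch A young and 2154 to 2247 CPM in batch B young MSCs). Cspg4 and Notch3 also reached their highest value in batch A young MSCs. Rgs5 was instead lowest in batch A young MSCs, and Myh11 was highest in batch C old MSCs. In bulk RNA, fewer cells of a type and less RNA per cell cannot be told apart.

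The sequences upstream of Pdgfra and Pdgfd are shown because these were the 2 members that passed the test between old and young MSCs within batch B. They are the 250 bases before the RefSeq start of each gene (RefSeq, GRCm38.p6), at chr5:75152001-75152250 on the plus strand for Pdgfra and at chr9:6168236-6168485 on the plus strand for Pdgfd, with capitals marking a TATA box (TATAAA).
Pdgfra: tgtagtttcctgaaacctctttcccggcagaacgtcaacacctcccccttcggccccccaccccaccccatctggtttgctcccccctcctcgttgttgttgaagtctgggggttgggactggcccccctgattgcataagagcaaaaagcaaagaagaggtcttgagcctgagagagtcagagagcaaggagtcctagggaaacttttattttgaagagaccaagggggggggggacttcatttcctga
Pdgfd: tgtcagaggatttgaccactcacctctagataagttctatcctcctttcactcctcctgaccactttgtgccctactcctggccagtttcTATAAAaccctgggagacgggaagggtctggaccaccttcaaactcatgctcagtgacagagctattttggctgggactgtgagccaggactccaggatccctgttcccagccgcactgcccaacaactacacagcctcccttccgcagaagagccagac

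Windows were searched on both strands for the GC box (GGGCGG), the TATA box (TATAAA), the CCAAT box (CCAAT) and the EGR1 site (GCGGGGGCG), whose letters can overlap those of a GC box. The Pdgfd window held 1 TATA box, which 12.4% of all 32851 promoter windows held, and none of the other motifs. Its letters lay nearer to the far end of the window than to the RefSeq start, and whether they act as a TATA box was not tested. The Pdgfra window held none of the 4 motifs. The GC box was present in 32.7%, the CCAAT box in 33.8% and the EGR1 site in 2.57% of all windows. Of the other members, the 2 windows of Pdgfa held 1 and 2 GC boxes with 19 and 28 CpG dinucleotides, against a median of 6 CpG over all windows, while the window of Pdgfc held no motif and 3 CpG, as many as that of Pdgfd. Pdgfrb, Pdgfrl and Pdgfb had no entry.

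Compared per kilobase of the longest transcript, Pdgfrb was the most abundant member in all 11 libraries and Pdgfb the least abundant. Over all libraries the level was 84.3 ± 28.1 CPM per kb for Pdgfrb (SD, n = 11) and 30.03 ± 8.72 for Pdgfra. The ligands were lower, at 12.8 ± 1.79 CPM per kb for Pdgfc, 11.8 ± 1.53 for Pdgfa, 5.87 ± 2.99 for Pdgfd and 1.26 ± 0.884 for Pdgfb, and Pdgfrl stood at 7.35 ± 1.38. Among 16106 genes ranked per kilobase, Pdgfrb lay between the 92.4th and 97.3rd percentile, Pdgfra between the 78.2nd and 93.3rd, and Pdgfb between the 7.62nd and 43.0th. Pdgfrb exceeded Pdgfra in all 11 libraries also when the union of all exons was taken as the length. That choice moved the order below the receptors: Pdgfd then stood above Pdgfra in batch B old replicate 1, and above Pdgfa and Pdgfc in both batch B old libraries.

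**Figure D1:**
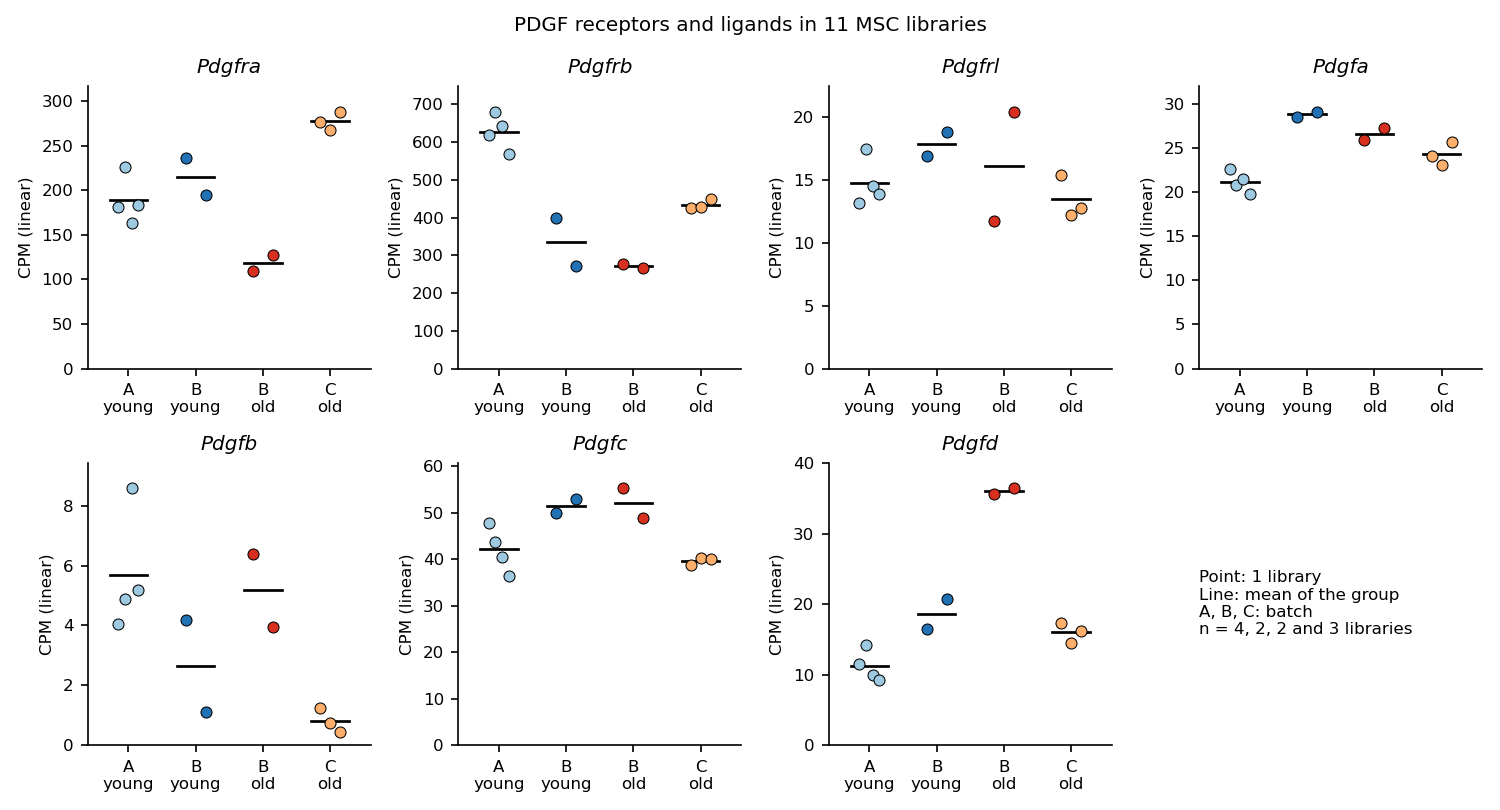
Level of each of the 7 members in CPM (vertical axis, linear from 0, a separate scale in each panel) in the 4 groups of libraries, with a point for each library and a line at the group mean. Pdgfra was lowest and Pdgfd highest in batch B old MSCs, Pdgfrb was highest in batch A young MSCs, and Pdgfb was lowest in batch C old MSCs.

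Pdgfra (ENSMUSG00000029231, chr5:75152292-75198215, plus strand, GRCm38) encodes PDGFRα, the receptor of the PDGF-A and PDGF-C chains. It was measured at 182, 227, 164 and 184 CPM in batch A young replicates 1 to 4, at 236 and 194 CPM in batch B young, at 109 and 128 CPM in batch B old, and at 277, 268 and 289 CPM in batch C old MSCs. Both old libraries of batch B lay below every other library and the 3 old libraries of batch C above every other library, while the young groups of batches A and B overlapped. The old group means thus stood on either side of the young ones, at 119 ± 13.1 CPM in batch B (SD, n = 2) and 278 ± 10.2 CPM in batch C (SD, n = 3). The summed level of the 10 mesenchymal markers, Pdgfra among them, was also lowest in batch B old (3506 to 3810 CPM) and highest in batch C old MSCs (5645 to 5708 CPM), but most of that gap came from Cxcl12, with 589 to 955 and 2724 to 2849 CPM. Prrx1 had the same order of these groups (290.4 to 335 and 513 to 533 CPM), Thy1 overlapped between them, and Cd44 was lower in batch C old (185 to 196 CPM) than in batch B old MSCs (252 to 329 CPM). Ly6a, the other sort marker, was lower in batch C old MSCs too (270.1 to 320.2 against 568 to 647 CPM). The part of these cells in the result was not tested. Of the genes that overlap Pdgfra on the opposite strand, Gm42803 had 4 counts in all. The antisense gene Gm42802, which shares 456 bases of exon with Pdgfra, was not in the count table, so that its reads could not be judged. Kit, the receptor gene next to Pdgfra on the chromosome, had 1 to 13 counts per library.

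Pdgfrb (ENSMUSG00000024620, chr18:61045150-61085061, plus strand) encodes PDGFRβ, the receptor of PDGF-B and PDGF-D. Batch A young MSCs contained 618, 680, 644 and 568 CPM, batch B young MSCs 400.1 and 273 CPM, batch B old MSCs 277 and 265 CPM, and batch C old MSCs 425, 429 and 449 CPM. All 4 libraries of batch A lay above all others, and batch C lay above batch B. Within batch B the ages overlapped, since young replicate 2 lay between both old libraries while young replicate 1 was far above them. The neighbouring receptor gene Csf1r, a marker of the monocyte lineage, starts 15536 bases further along the chromosome and had 217 to 3180 counts per library.

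Pdgfrl (ENSMUSG00000031595, chr8:40926212-40990785, plus strand) encodes a secreted protein that resembles the extracellular part of the receptors. Its level was 13.2 to 17.5 CPM in batch A young, 16.9 and 18.8 CPM in batch B young, 11.7 and 20.4 CPM in batch B old, and 12.2 to 15.4 CPM in batch C old MSCs. Neighbouring groups in the order of means overlapped throughout, and the old libraries of batch B held both the lowest and the highest value of the series.

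Pdgfa (ENSMUSG00000025856, chr5:138976014-138997370, minus strand) encodes the PDGF-A chain. It had 22.6, 20.9, 21.5 and 19.8 CPM in batch A young, 28.5 and 29.1 CPM in batch B young, 25.9 and 27.3 CPM in batch B old, and 24.1, 23.03 and 25.7 CPM in batch C old MSCs. The range was narrow, and the group values did not overlap between neighbours in the order batch B young, batch B old, batch C old and batch A young. The values are uncertain, because Pdgfa shares 813 bases of exon with the antisense gene 6330403L08Rik, which had 127 to 319 counts per library, and it is not stated that strand was used in counting.

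Pdgfb (ENSMUSG00000000489, chr15:79995874-80014977, minus strand) encodes the PDGF-B chain and rested on few reads. Batch A young MSCs had 4.04, 4.90, 8.59 and 5.20 CPM, batch B young MSCs 4.17 and 1.09 CPM, batch B old MSCs 6.40 and 3.94 CPM, and batch C old MSCs 1.24, 0.720 and 0.435 CPM. The lowest of these was 6 counts (95% Wilson interval 0.199 to 0.949 CPM) and the highest 104 counts (7.09 to 10.4 CPM), with intervals that cover counting error only. Batch B young replicate 2, with 16 counts, lay within the range of batch C and below every other library of batches A and B.

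The summed level of haematopoietic markers moved with Pdgfb. Batch A young replicate 3 had the highest value of both (1420 CPM of markers), batch C old replicate 3 the lowest of both (130 CPM), and batch B young replicate 2, with 368 CPM, had the lowest marker level outside batch C. All 12 markers were detected in each group, Csf1r at 107 to 263 CPM in batch A young and 15.7 to 17.8 CPM in batch C old MSCs. Megakaryocyte and platelet markers, a list of 6 genes, summed to 20.1 to 36.5 CPM in batch A young, 15.5 to 22.7 in batch B young, 26.0 to 41.2 in batch B old and 7.98 to 10.9 in batch C old MSCs, with Gp9 at 0 in each batch B and C library. The 6 endothelial markers summed to at most 9.89 CPM, and Emcn was at 0 in batch A young and batch B old MSCs. The part of these cells in the level of Pdgfb was not tested.

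**Figure D2:**
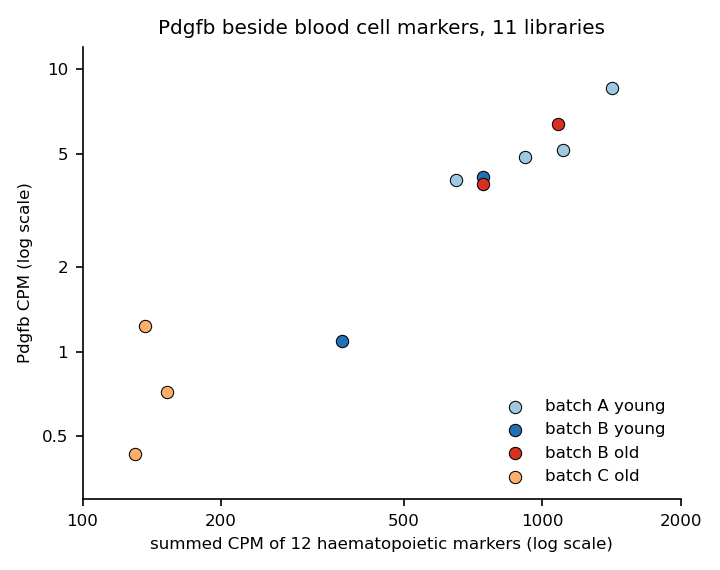
Pdgfb in CPM (vertical axis, log scale) against the summed CPM of 12 haematopoietic markers (horizontal axis, log scale), with a point for each of the 11 libraries coloured by group. The 3 batch C old libraries lie at 130 to 153 CPM of markers and at most 1.24 CPM of Pdgfb, and batch A young replicate 3 is highest on both axes.

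Pdgfc (ENSMUSG00000028019, chr3:81036416-81214040, plus strand) encodes the latent PDGF-C chain. Levels were 47.7, 43.7, 40.5 and 36.5 CPM in batch A young, 49.9 and 53.01 CPM in batch B young, 55.3 and 48.8 CPM in batch B old, and 38.7, 40.3 and 40.03 CPM in batch C old MSCs. All 4 libraries of batch B lay above all others, and their ages overlapped.

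Pdgfd (ENSMUSG00000032006, chr9:6168584-6378850, plus strand) encodes the latent PDGF-D chain. It had 11.5, 14.2, 9.99 and 9.18 CPM in batch A young, 16.5 and 20.8 CPM in batch B young, 35.7 and 36.5 CPM in batch B old, and 17.3, 14.5 and 16.2 CPM in batch C old MSCs. Both old libraries of batch B stood above every other library, the libraries of batch A were lowest, and batch B young and batch C old MSCs overlapped.

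The first comparison asked which members differ between old and young MSCs of the same batch. Within batch B, Pdgfra fell and Pdgfd rose with age, and the other 5 members did not pass the test. Pdgfra was 1.82-fold lower in old MSCs (log2 fold change -0.86, SE 0.15, adjusted p = 0.0059 in edgeR's quasi-likelihood test). Pdgfd was 1.94-fold higher (log2 fold change 0.96, SE 0.17, adjusted p = 0.0089). These were 2 of 7 members, while 2.23% of 16132 genes passed the test in either direction. The summed level of the 4 chondrocyte markers moved with this comparison, with 4367 to 6175 CPM in batch B young and 2297 to 2565 CPM in batch B old MSCs. It was 5177 to 6996 CPM in batch A young and 3868 to 4585 CPM in batch C old MSCs. Most of the sum came from Comp (3653 to 4911 CPM in batch B young and 1656 to 1820 CPM in batch B old MSCs). Sox9 was also lower in batch B old MSCs, while Acan and Col2a1 overlapped between the ages of batch B. The part of these markers in the result was not tested.

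Among the other members, Pdgfrb had a log2 fold change of -0.31 (SE 0.15, adjusted p = 0.317 in edgeR) and Pdgfb of 0.93 (SE 0.48, adjusted p = 0.355). The 95% interval for Pdgfb was -0.01 to 1.86, and it passed when no filter was applied (0.91, adjusted p = 0.0364). Leaving out single libraries moved it from 0.31 without batch B young replicate 2 to 2.24 without batch B young replicate 1 (adjusted p = 0.706 and 0.0826 in edgeR), and it was 0.55 without batch B old replicate 1. Pdgfrl (-0.15), Pdgfa (-0.12) and Pdgfc (0.02) had smaller log2 differences, with 95% intervals of -0.57 to 0.27, -0.35 to 0.12 and -0.22 to 0.26. Both calls depended on single libraries: without batch B old replicate 1, the log2 fold change was -0.74 for Pdgfra (adjusted p = 0.0912 in edgeR) and 0.98 for Pdgfd (adjusted p = 0.0602). Without batch B young replicate 1, Pdgfd had 0.80 (adjusted p = 0.0722). Pdgfrb had -0.01 without batch B young replicate 1 (adjusted p = 0.992 in edgeR) and passed the test at -0.57 without batch B young replicate 2 (adjusted p = 0.00918). Without a batch term no member passed, Pdgfra changed sign to 0.14 (adjusted p = 0.733 in edgeR), and with batch as a random block it had -0.66 (adjusted p = 0.0977 in limma).

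**Figure D3:**
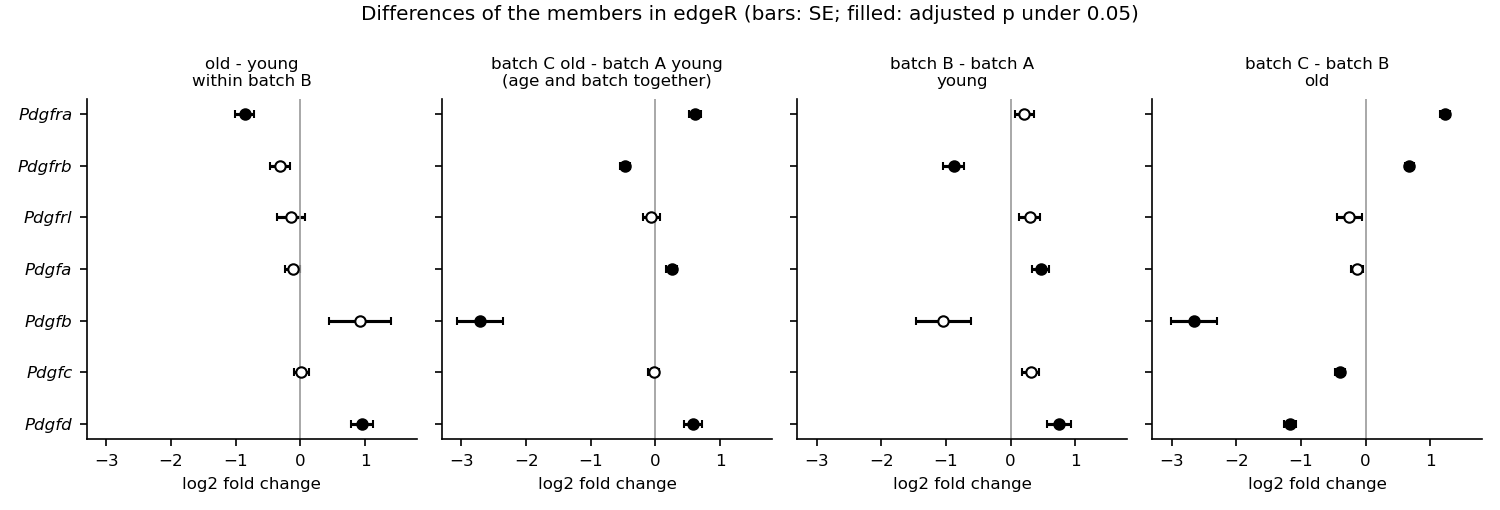
Log2 fold change of the 7 members (horizontal axis) in 4 comparisons, with bars of 1 SE and filled points for an adjusted p under 0.05 in edgeR. Pdgfra lies at -0.86 for old against young MSCs within batch B and at 0.62 for batch C old against batch A young MSCs, while Pdgfd lies right of 0 in both.

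Old MSCs of batch C and young MSCs of batch A differ in age and in batch, which cannot be told apart in this comparison. Pdgfra and Pdgfd were higher and Pdgfrb and Pdgfb lower in batch C old MSCs, with a small difference in Pdgfa. The 5 of 7 members that passed stand beside 63.8% of 15021 genes, a share near that of the members. Pdgfb had the largest difference of the members, 6.54-fold lower (log2 fold change -2.71, SE 0.35, adjusted p = 2.66e-05 in edgeR). Pdgfra was 1.53-fold higher (0.62, SE 0.10, adjusted p = 0.00011), Pdgfd 1.49-fold higher (0.58, SE 0.14, adjusted p = 0.00315) and Pdgfrb 1.39-fold lower (-0.47, SE 0.08, adjusted p = 0.000136). The Pdgfd value was 0.13 after a correction for transcript length and GC content (adjusted p = 0.436 in limma). Pdgfa had 0.25 (SE 0.09, adjusted p = 0.0204 in edgeR) and did not pass without batch A young replicate 4, batch C old replicate 1 or batch C old replicate 3, where adjusted p was 0.0506, 0.0641 and 0.118, nor without a filter (0.0691) or in a fit to all 4 groups (0.0816). Pdgfrl (-0.06, adjusted p = 0.673) and Pdgfc (-0.03, adjusted p = 0.792) did not pass in edgeR, and Pdgfc was 0.27 and passed (adjusted p = 0.0135) when libraries were scaled by total counts, which moved the median of all genes by 0.29.

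The age contrast of batches A and C was then compared with that of batch B, and the difference itself was tested. Pdgfra differed by 1.42 on the log2 scale (SE 0.18, adjusted p = 4.02e-05 in edgeR), since it was higher in the old group of the first contrast and lower in that of the second. Pdgfb differed by -3.70 (SE 0.66, adjusted p = 0.000544). These were 2 of 7 members, beside 35.7% of 16132 genes. The differences of Pdgfd (-0.44, SE 0.22, adjusted p = 0.141), Pdgfrb (-0.22, adjusted p = 0.388), Pdgfa (0.31, adjusted p = 0.12), Pdgfc (-0.11, adjusted p = 0.63) and Pdgfrl (0.02, adjusted p = 0.954) did not pass in edgeR. Without batch B young replicate 1, Pdgfrb passed at -0.52 (adjusted p = 0.0109), and without batch B young replicate 2 it was 0.03.

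Batches were compared at the same age to show how far the members vary without it. In young MSCs, batch B had less Pdgfrb and more Pdgfa and Pdgfd than batch A. Pdgfrb was 1.84-fold lower (log2 fold change -0.88, SE 0.16, adjusted p = 0.0048 in edgeR). Pdgfd was 1.69-fold higher (0.75, SE 0.19, adjusted p = 0.0174) and Pdgfa 1.38-fold higher (0.46, SE 0.13, adjusted p = 0.0258). These were 3 of 7 members, beside 18.1% of 14840 genes. Pdgfra (0.21, adjusted p = 0.338), Pdgfrl (0.30, adjusted p = 0.21), Pdgfb (-1.04, adjusted p = 0.104) and Pdgfc (0.31, adjusted p = 0.112) did not pass in edgeR. After the length and GC correction Pdgfd had 0.39 (adjusted p = 0.15 in limma). Only Pdgfrb passed without batch A young replicate 3, where adjusted p was 0.0534 for Pdgfd and 0.0741 for Pdgfa. Without batch B young replicate 2, Pdgfd had 0.58 (adjusted p = 0.174) and Pdgfa 0.45 (adjusted p = 0.113), and without batch B young replicate 1, Pdgfb passed at -2.34 (adjusted p = 0.00808). Pdgfa also lost its call without batch A young replicate 2 (adjusted p = 0.0612) and without batch A young replicate 4 (adjusted p = 0.0814).

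In old MSCs, batch C had more of both receptors and less of the ligands Pdgfb, Pdgfc and Pdgfd than batch B. Pdgfra was 2.34-fold higher (log2 fold change 1.22, SE 0.08, adjusted p = 9.64e-08 in edgeR) and Pdgfrb 1.60-fold higher (0.68, SE 0.07, adjusted p = 2.88e-06). Pdgfb was 6.27-fold lower (-2.65, SE 0.35, adjusted p = 4.05e-05), Pdgfd 2.25-fold lower (-1.17, SE 0.09, adjusted p = 5.59e-07) and Pdgfc had a log2 fold change of -0.40 (SE 0.08, adjusted p = 0.000706). The 5 of 7 members stand beside 64.7% of 15651 genes, again near the share of all genes. Pdgfa (-0.14, adjusted p = 0.201) and Pdgfrl (-0.25, adjusted p = 0.269) did not pass in edgeR, and Pdgfrl passed at -0.60 without batch B old replicate 1 (adjusted p = 0.000884) and was 0.20 without batch B old replicate 2. The batch B old libraries enter this comparison and the age comparison of batch B, and the batch C old libraries enter this comparison and that with batch A.

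The balance of the receptors was read from the ratio of Pdgfra to Pdgfrb counts within each library. The ratio was 0.294, 0.333, 0.254 and 0.323 in batch A young, 0.590 and 0.713 in batch B young, 0.395 and 0.482 in batch B old, and 0.652, 0.625 and 0.643 in batch C old MSCs. Batch A young MSCs had the lowest ratios, followed by batch B old MSCs, and none of these libraries overlapped batch B young or batch C old MSCs. Over all 11 libraries old MSCs had a log2 ratio 0.50 above young MSCs (exact two-sided permutation test, p = 0.13). Within batch B the difference was -0.57 (exact permutation p = 0.333, the smallest that 2 against 2 libraries allow). Between batches A and C it was 1.09 (exact permutation p = 0.0286, the smallest that 4 against 3 allow), so that the pooled value did not hold within batch B. Without batch B young replicate 2 the pooled difference was 0.68 (exact permutation p = 0.0397).

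Of the summed ligand level per kilobase of the longest transcript, Pdgfc and Pdgfa made up the largest shares in each library. With the union of all exons as length, Pdgfd was instead the highest ligand in both batch B old libraries, so that these shares depend on the length taken. Pdgfc contributed 34.6% to 45.8% and Pdgfa 30.01% to 42.8% over the 11 libraries. Pdgfd made up 11.4% to 15.8% in batch A young, 15.2% and 18.3% in batch B young, 27.3% and 29.0% in batch B old, and 16.9% to 19.3% in batch C old MSCs. Its share in both old libraries of batch B was above that of every other library. Pdgfb made up 4.65% to 10.4% in batch A young and 0.506% to 1.47% in batch C old MSCs, with 1.02% and 4.08% in batch B young and 3.34% and 5.20% in batch B old MSCs.

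**Figure D4:**
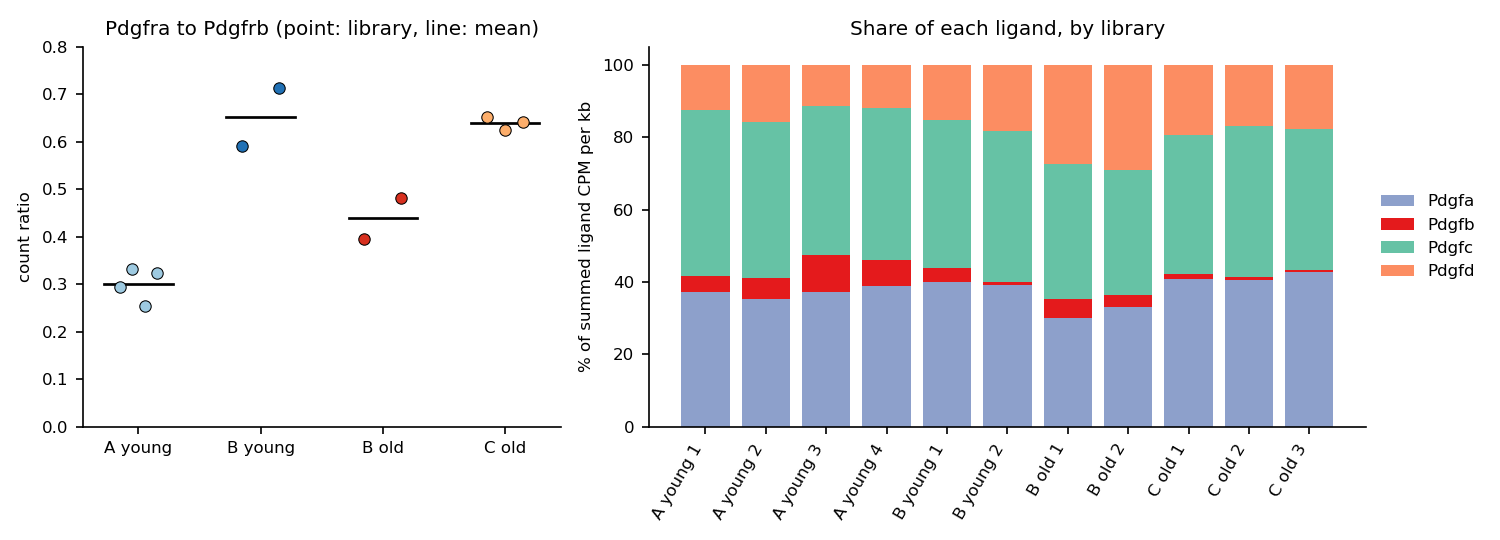
Left, ratio of Pdgfra to Pdgfrb counts in each library (points) with the group mean (line). Right, share of each ligand in the summed ligand CPM per kb of the longest transcript in each library (stacked bars, in percent), where Pdgfd reaches 27.3% and 29.0% in batch B old MSCs but no more than 19.3% elsewhere.

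The pathway around the members was described by a list of 81 genes in 5 groups, of which 79 were in the table and tested. The groups were ligand processing and binding (8 genes), signal transduction (30), feedback and phosphatases (13), growth factor response genes (15) and relatives of the PDGF and VEGF families (13 of 15). Between old and young MSCs of batch B, 1 of 79 genes rose and 0 fell in edgeR, which is 1.27% beside 2.23% of all genes. At an unadjusted p under 0.05 it was 2597 of the 16132 genes. The gene that rose was Spry1, an inhibitor of receptor tyrosine kinase signalling, from 10.1 ± 0.853 CPM in young to 16.1 ± 0.710 CPM in old MSCs (SD, n = 2 each; log2 fold change 0.66, SE 0.14, adjusted p = 0.021 in edgeR). The median log2 fold change of the list was -0.07, and that of all genes 0.00. The count varied from 0 without batch B old replicate 1 to 16 without batch B young replicate 2, and was 7 without batch A young replicate 1 and 2 without batch A young replicate 2.

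In the comparisons between batches more of the list passed, as did more of all genes. In young MSCs 7 of 79 genes were higher and 9 lower in batch B than in batch A (20.3% of the list). The share of all genes was 18.1%, close to that of the list. The called gene with the largest difference was Lrp1, a receptor that binds to PDGFRβ, among ligand processing and binding (log2 fold change -1.06, SE 0.20), the adaptor gene Gab1 among signal transduction (-0.73, SE 0.16), the phosphatase gene Ptprj among feedback genes (-0.80, SE 0.20), Egr1 among response genes (-0.83, SE 0.17) and Csf1r among the relatives (-1.50, SE 0.38). Without batch B young replicate 2, 2 genes of the list passed, and without batch A young replicate 3 it was 10. In old MSCs 31 were higher and 24 lower in batch C than in batch B (69.6%, beside 64.7% of all genes), and 30 were higher and 23 lower in batch C old than in batch A young MSCs (67.1%, beside 63.8%).

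The growth factor response genes had the largest median of the 5 groups in both comparisons with batch C. Of these 15 genes, 11 were higher and 3 lower in batch C than in batch B old MSCs (93.3%, beside 64.7% of all genes). Their median log2 fold change was 2.73, while the median of all genes was 0.02. Fosb (8.80, SE 0.12), Fos (7.20, SE 0.17) and Egr3 (5.49, SE 0.18), which encode transcription factors induced early after stimulation, had the largest log2 differences of the group. Against batch A young MSCs, 11 were higher and 0 lower (73.3%, beside 63.8% of all genes), with a median of 2.93 and 7.64 for Fosb, 7.63 for Fos and 5.41 for Egr3. The 6 adipocyte markers also moved with batch C, with a sum of 292 to 313 CPM against 92.5 to 159.9 CPM in the other groups. Of the 6 osteoblast markers, the transcription factor gene Sp7 had 70.9 to 93.6 CPM in batch C against 25.2 to 42.5 CPM in the other groups. Runx2, Alpl, Bglap and Ibsp were also highest in batch C, while Col1a1, nearly all of the osteoblast sum, was lowest there (18420 to 19440 CPM). The part of these markers in these differences was not tested. Batch C held no young MSCs, and for it age and batch cannot be told apart. Signal transduction genes had medians of -0.01 and -0.12 in these comparisons. Against batch B old MSCs 6 of 30 were higher and 11 lower (56.7%, beside 64.7% of all genes). Against batch A young MSCs 5 were higher and 14 lower (63.3%, beside 63.8%), so that neither share was above that of all genes. Outside the response genes, the called gene with the largest difference from batch B old MSCs was Lrp1 (1.04, SE 0.10), Crk (-1.05, SE 0.06), Dusp6 (0.81, SE 0.14) and Flt4 (-2.54, SE 0.19) in the groups named above, in that order. From batch A young MSCs it was Sparc, whose product binds PDGF-B (-1.06, SE 0.08), Map2k2 (-1.04, SE 0.09), Ptpn1 (-0.99, SE 0.08) and Csf1r (-3.31, SE 0.25).

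**Figure D5:**
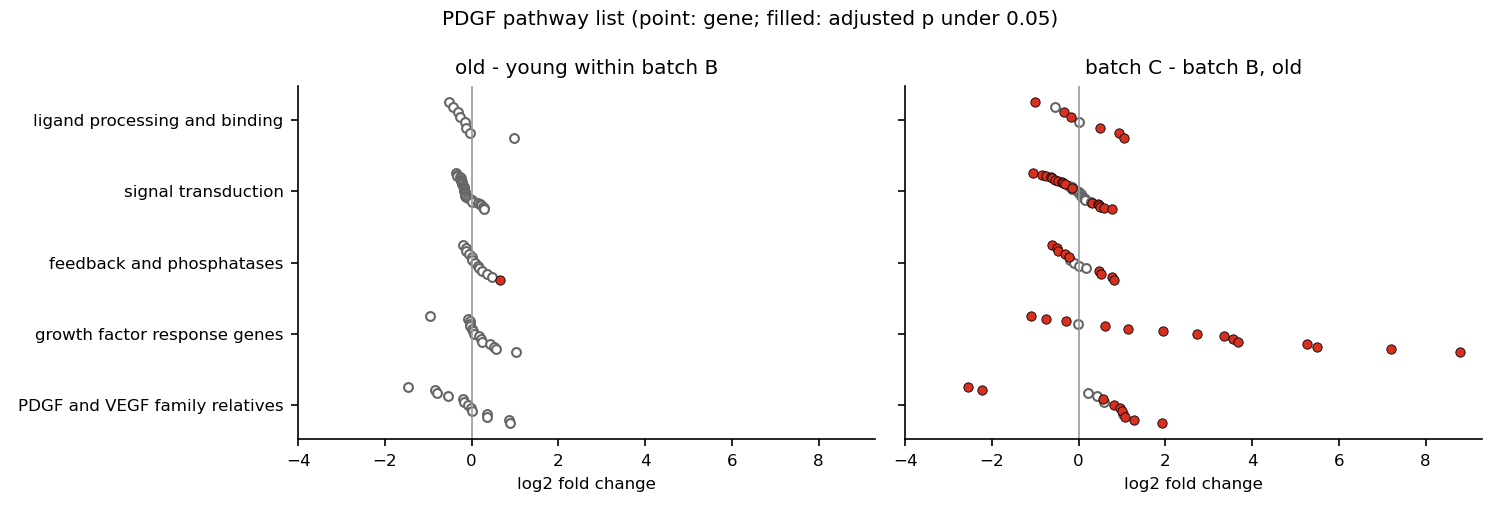
Log2 fold change (horizontal axis) of the 79 tested genes of the PDGF pathway list in 5 groups (vertical axis) for old against young MSCs within batch B (left) and batch C against batch B in old MSCs (right), with filled points for an adjusted p under 0.05 in edgeR. Spry1 is the only filled point on the left, and Fosb at 8.80 is farthest to the right.

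The genes whose log2 CPM ran most alike with each member over the 11 libraries were found among 10034 genes (10035 for Pdgfb) with a mean of at least 5 CPM. The libraries share batches and scaling, so that Pearson's r describes these libraries only. Pdgfra ran most alike with Plpp3 (r = 0.990), which encodes a lipid phosphatase, the limb mesenchyme transcription factor gene Prrx1 (r = 0.977) and Glt8d2 (r = 0.972). Pdgfrb ran most alike with Zc3h7b (r = 0.995), the RNA polymerase II gene Polr2a (r = 0.992) and Sart3 (r = 0.990). For Pdgfb they were Dock2 (r = 0.979) and Cd93 (r = 0.973), genes known from leukocytes, and Tnfrsf11a (r = 0.972), which encodes the osteoclast precursor receptor RANK. Pdgfd ran most alike with the Mediator gene Med17 (r = 0.975), the p53 target gene Eda2r (r = 0.968) and Pla2g4a (r = 0.958). Pdgfa ran most alike with Hccs (r = 0.959), Tspan11 (r = 0.955) and Mageh1 (r = 0.954), and Pdgfc with Aen (r = 0.954), Abcf2 (r = 0.951) and Slain2 (r = 0.951). For Pdgfrl, Paxx (r = 0.873), Tcta (r = 0.867) and Lbp (r = 0.849) came closest, with lower values than for any other member. Among the members themselves, r was 0.377 between Pdgfra and Pdgfrb, -0.883 between Pdgfrb and Pdgfd, and 0.716 between Pdgfa and Pdgfd.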

How the data were processed

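The authors deposited unnormalised read counts, as 1 table with a row per gene and a column per library. The labels name the builds mm10 and GRCm38. The study's methods, written for an oxygen comparison, name zUMIs, STAR and featureCounts, and it was assumed that these libraries were made in the same way. Whether strand was used is not given in the sources used here, so overlapping genes can share reads. Identifiers were matched to GENCODE M21 (GRCm38), and 28143 of 28222 had a transcript length.

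Two-sided quasi-likelihood tests of these counts were made in edgeR 4.0.16 (R 4.3.3), with filterByExpr (minimum count 5), TMM factors and Benjamini-Hochberg adjustment over all genes tested (threshold 0.05). The model for age took all 11 libraries and a batch term, so that its coefficient equals batch B old minus batch B young. The other comparisons used only the libraries named, except that the difference of the age contrasts used 4 group means. Standard errors were derived from each F statistic, and 95% intervals are 1.96 SE either way. With so few libraries this normal quantile makes the intervals somewhat too narrow, and they are approximate. For Pdgfrb with age in batch B it gave -0.61 to -0.02, although the unadjusted p was 0.0532 in edgeR. Confidence intervals of counts are 95% Wilson intervals. Log2 CPM used a prior count of 2.

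Members, lists and tests were chosen with earlier results of these data known. All members are named, as are the pathway genes called in the age comparison of batch B, in comparisons between batches, the called gene with the largest log2 fold change in each list group (3 for response genes against batch C), and the 3 genes most like each member. No pair of replicates agreed within sampling noise (lowest chi-square per gene 3.24). Alternatives were limma-trend (limma 3.58.1), DESeq2 1.42.0, other scalings and filters, a length and GC correction, other treatments of batch, the replicate block and leaving out each library. The union of exons as length was added after seeing the data. The tests were checked on simulated counts with the same dispersion for all genes and libraries. Real pairs were less even, with a chi-square per gene up to 52.3 in batch B young MSCs. That check therefore cannot show how the tests fare with such uneven spread. Values of 1 marker list are not reported here.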

Additional observations from a re-analysis of the deposited data

Results flagged for a closer look

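The old against young contrast of batches A and C and that of batch B differed by a test of the difference itself for 2 of 7 members, beside 35.7% of 16132 genes in the same test. Pdgfra differed by 1.42 on the log2 scale (SE 0.18, adjusted p = 4.02e-05 in edgeR), with means of 119 ± 13.1 CPM for old MSCs of batch B (SD, n = 2) and 278 ± 10.2 CPM for those of batch C (SD, n = 3). Pdgfb differed by -3.70 (SE 0.66, adjusted p = 0.000544 in edgeR), and the summed haematopoietic marker level moved with it, though not in a fixed ratio. The part of these cells in the difference was not tested. The contrast of batches A and C holds a difference between batches, which cannot be told apart from age.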

How the results depend on the processing

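Calls between old and young MSCs rest on 2 libraries of each age in batch B, and Pdgfb on as few as 6 counts, which limits both. Of the members in that comparison (2 called), 0 passed without a batch term and 1 with batch as a random block, and leaving out single libraries gave 0 to 3. Without a batch term the sign turned for Pdgfra (0.14), Pdgfa (0.10), Pdgfb (-0.86) and Pdgfc (-0.0046). Leaving out single libraries gave -0.61 to 0.21 for Pdgfrl and -0.0657 to 0.10 for Pdgfc there, -0.60 to 0.20 for Pdgfrl between batches C and B, -0.19 to 0.0163 for Pdgfrl and -0.0893 to 0.0299 for Pdgfc between batch C old and batch A young, and -0.32 to 0.48 for Pdgfrl and -0.52 to 0.032 for Pdgfrb in the difference of the age contrasts. The cause was not tested.

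Of the pathway genes (1 called with age in batch B), limma-trend called 3, DESeq2 8, scaling by total counts 2, a minimum of 10 counts 2, omitting the filter 10, the length and GC correction 4, no batch term 21, batch B alone 0, and fits without single libraries 0 to 16. Between batches B and A in young MSCs (3 members and 16 pathway genes called), the length and GC correction called 10 pathway genes, and fits without single libraries called 1 to 4 members and 2 to 23 pathway genes. In the difference of the age contrasts the length and GC correction called 5 members. Scaling by total counts gave 0.057 for Pdgfa between batches C and B, 0.23 for Pdgfrl and 0.27 for Pdgfc between batch C old and batch A young, and 0.0654 for Pdgfrb and 0.19 for Pdgfc in the difference. The median of all genes shifted by 0.19, 0.29 and 0.29 in these comparisons, and the share of calls that were higher from 49.6% to 62.9%, from 50.1% to 72.5% and from 44.5% to 71.0%. With age in batch B that share went from 31.1% to 44.8%, and between batches B and A from 51.9% to 66.4%. The length and GC correction gave 0.0284 for Pdgfa between batches C and B and 0.0053 for Pdgfc between batch C old and batch A young MSCs.

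The Pdgfra to Pdgfrb log2 ratio, 0.50 higher in old MSCs over all libraries, was -0.57 in batch B, 1.09 between batches A and C, 0.93 by medians and 0.38 to 0.68 without single libraries. The deviations of same-numbered libraries from their group means correlated at -0.11 to 0.135, which gave no sign of pairing. In the batch B groups, with n = 2 each, deviations mirror each other by construction, so that this check cannot exclude pairing. With the replicate block, 1 member and 8 pathway genes were called between batches B and A in young MSCs, 4 members between batch C old and batch A young, and 2 members and 0 pathway genes with age in batch B. Of 790 alternative values, 704 kept their direction and their side of the threshold or, where the value was a count, stayed within a factor of 1.5.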
